A study of Mus musculus with 8 samples.

Results

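Very broad open regions of mouse embryonic stem cells, meaning autosomal ATAC-seq regions of 1500 bp or more, were taken from the peak lists of Ubc9-depleted cells and of their control cells. The depleted list held 1208 of them among its 46435 autosomal regions, and the control list 428 among 45075. Overlapping members of the lists were joined into loci, and the 1636 members lay in 1382 loci. Width chose the members, so their widths and numbers are given as a description, with no test.

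The Ubc9-depleted cells were v6.5 embryonic stem cells with a TET-OFF system, in which doxycycline given for 72 hours shuts off Ubc9. The control cells were of the same line, and the labels name the drug for the depletion only, so the drug and the loss of Ubc9 cannot be told apart. The other pair of the series was used only for overlap. It consists of H1-TKO cells, with the genotype H1.2-/-H1.3-/-H1.4-/-, and H1-WT cells, from another line. All cells had 4 passages in 2i/LIF, and each reaction used 50000 cells and 12 PCR cycles. Each list was made from the 2 replicates of its group, so there was 1 list per group, no spread between replicates and no p-value. The intervals below are exact 95% intervals, Clopper-Pearson for shares and Poisson for counts, and cover counting error only.

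Ubc9 is the enzyme that passes the small protein SUMO to its targets, many of which are chromatin proteins that keep genes and repeated DNA silent. ATAC-seq marks open chromatin by the insertion of sequencing adapters by a transposase. A typical region spans the gap of a single promoter or enhancer, whereas broad ones are often found at CpG-rich promoters and where neighbouring open sites merge.

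Promoter sequences are shown for a few members of different kinds. Regions of the Zscan4 genes on chromosome 7 were listed in depleted cells only, unlike most regions of that kind, which held no coding start. Their zinc-finger proteins are markers of the 2-cell embryo. The 250 bases before the annotated start of 4 Zscan4 genes are shown, 5′ to 3′ on the gene's strand, because 3 of these starts lay in very broad depleted regions with no control partner and that of Zscan4d in one just under the threshold. Capitals mark the longest run of bases that all 4 have in common, 48 bases.
Zscan4b, chr7:10905051-10905300, minus strand: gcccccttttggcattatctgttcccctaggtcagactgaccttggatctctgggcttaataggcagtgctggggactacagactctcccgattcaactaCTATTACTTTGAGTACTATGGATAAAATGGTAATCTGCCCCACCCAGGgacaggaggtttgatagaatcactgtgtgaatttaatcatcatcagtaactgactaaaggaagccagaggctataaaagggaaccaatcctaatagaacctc
Zscan4c, chr7:11005495-11005744, plus strand: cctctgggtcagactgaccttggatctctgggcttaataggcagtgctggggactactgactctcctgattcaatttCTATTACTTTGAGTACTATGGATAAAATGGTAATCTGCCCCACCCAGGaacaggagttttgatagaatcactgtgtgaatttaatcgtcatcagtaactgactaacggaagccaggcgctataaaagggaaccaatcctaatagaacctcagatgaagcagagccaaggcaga
Zscan4d, chr7:11166149-11166398, minus strand: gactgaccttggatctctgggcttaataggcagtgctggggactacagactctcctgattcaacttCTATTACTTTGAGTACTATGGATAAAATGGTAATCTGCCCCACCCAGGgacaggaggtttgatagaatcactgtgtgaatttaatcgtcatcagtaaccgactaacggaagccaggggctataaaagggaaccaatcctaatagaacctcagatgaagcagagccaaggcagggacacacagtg
Zscan4f, chr7:11397665-11397914, plus strand: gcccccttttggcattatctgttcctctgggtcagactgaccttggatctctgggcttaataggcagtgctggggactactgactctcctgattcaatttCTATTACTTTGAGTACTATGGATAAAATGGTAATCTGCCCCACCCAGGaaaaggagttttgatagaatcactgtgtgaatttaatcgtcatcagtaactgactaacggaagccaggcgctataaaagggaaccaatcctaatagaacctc
The common run began at position -150 in Zscan4b and Zscan4f, at -173 in Zscan4c and at -184 in Zscan4d, counting the base before the start as -1. It was found in these 4 of 32851 promoters of the table, on either strand. Pairs in which the run began at different positions had 60 to 62 of 250 bases in common at the same positions. That offset makes the count unfit to measure their likeness. Zscan4b and Zscan4f, where the run began at the same position, had 237 of 250 bases in common. Reads from such near-identical copies may not be told apart, so the values of single Zscan4 genes are uncertain.

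Regions broad in both lists lay mostly at gene ends. As examples chosen after their values were seen, the same stretch is shown for Rap2b, a small GTPase of the Ras family, and Smurf1, a ubiquitin ligase. Capitals mark every CpG, the base pair step that is dense in CpG islands.
Rap2b, chr3:61364257-61364506, plus strand: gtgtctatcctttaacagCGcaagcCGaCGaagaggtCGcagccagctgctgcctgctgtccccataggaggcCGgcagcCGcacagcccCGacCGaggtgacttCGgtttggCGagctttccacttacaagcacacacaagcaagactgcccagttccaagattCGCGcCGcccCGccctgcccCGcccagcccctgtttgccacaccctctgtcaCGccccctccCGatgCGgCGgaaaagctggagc
Smurf1, chr5:144965831-144966080, minus strand: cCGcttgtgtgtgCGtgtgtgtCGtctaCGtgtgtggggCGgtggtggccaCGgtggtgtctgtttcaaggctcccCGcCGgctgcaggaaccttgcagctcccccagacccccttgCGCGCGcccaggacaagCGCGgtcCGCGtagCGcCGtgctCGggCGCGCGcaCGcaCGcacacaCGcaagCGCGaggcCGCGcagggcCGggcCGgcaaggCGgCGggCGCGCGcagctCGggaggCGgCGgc
The printed stretch of Rap2b held 19 CpGs, and that of Smurf1 held 38. The 4 Zscan4 stretches held 1 to 3, which is not typical of starts in very broad regions without a partner. The region over the Rap2b start was 2407 bp wide in the depleted list and 2280 bp in the control list, and that over the Smurf1 start was 2394 bp and 2269 bp in the same order. All sequences are from RefSeq with the build GRCm38.p6, which has mm10 coordinates. The regions' own sequence away from promoters was not used here.

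Very broad regions were 2.82 times as many in the depleted list as in the control list, while all autosomal regions were 1.03 times as many. The depleted count of 1208 had an interval of 1141 to 1278, and the control count of 428 one of 388 to 471. They made up 2.60% of the depleted list and 0.950% of the control list, which are the shares the rule itself fixes. They covered 2.25 Mb in the depleted list, 8.85% of the covered length, and 0.78 Mb in the control list, 3.72% of it. The depleted list as a whole had wider regions, with a median of 430 bp over all autosomal regions against 366 bp in the control list. The depth behind the lists is unknown, and the part that depth plays in the widths was not tested.

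The median member was 1796 bp wide in the depleted list, with quartiles of 1647 and 1953 bp, and 1696 bp in the control list, with quartiles of 1585 and 1887 bp. The depleted list had 238 members of 2000 bp or more and 20 of 3000 bp or more, and the control list 73 and 8. The 5 depleted regions just inside the threshold were 1500 to 1504 bp wide and the 5 just outside 1496 to 1499 bp, and the 5 control regions 1500 to 1501 bp and 1496 to 1499 bp. In all, 214 depleted and 117 control members were under 1600 bp. The score that the authors deposited for each region had a median of 258.2 over depleted members, at percentile 79.4 of that list, and of 203.0 over control members, at percentile 74.2.

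Partners separated the lists. A partner is a region of the other list that overlaps by at least 1 bp. Of the 1208 depleted members, 254 (21.0%) had a control partner that was itself very broad, 419 (34.7%) had only a narrower one, and 535 (44.3%, interval 41.5 to 47.1) had none. Over all depleted regions 45.0% had none, so the last share is near the background. Of the 428 control members, 254 (59.3%) had a very broad depleted partner, 165 (38.6%) a narrower one and 9 (2.10%, interval 0.966 to 3.95) none, against a background of 43.2%. Among the 1208 widest control regions, which reached down to 1214 bp, 59 (4.88%) had no depleted partner. Wider regions meet a partner more easily, so the comparison with all regions is a description.

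The depleted members without a partner had a width distribution of their own. Their number per 100 bp was 56 from 1400 bp, 33 from 1500 bp and 41 from 1600 bp, and then 131, 142 and 100 in the bins from 1700, 1800 and 1900 bp, before 51 from 2000 bp and 11 from 2100 bp. Members with a partner became fewer from bin to bin over the same range, from 181 in the bin from 1500 bp to 26 in the bin from 2100 bp. Thus 373 of 535 members without a partner (69.7%) were from 1700 to under 2000 bp wide, against 211 of 673 with a partner (31.4%) and 139 of the 428 control members (32.5%). The window was chosen after the distribution was seen.

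**Figure D1:**
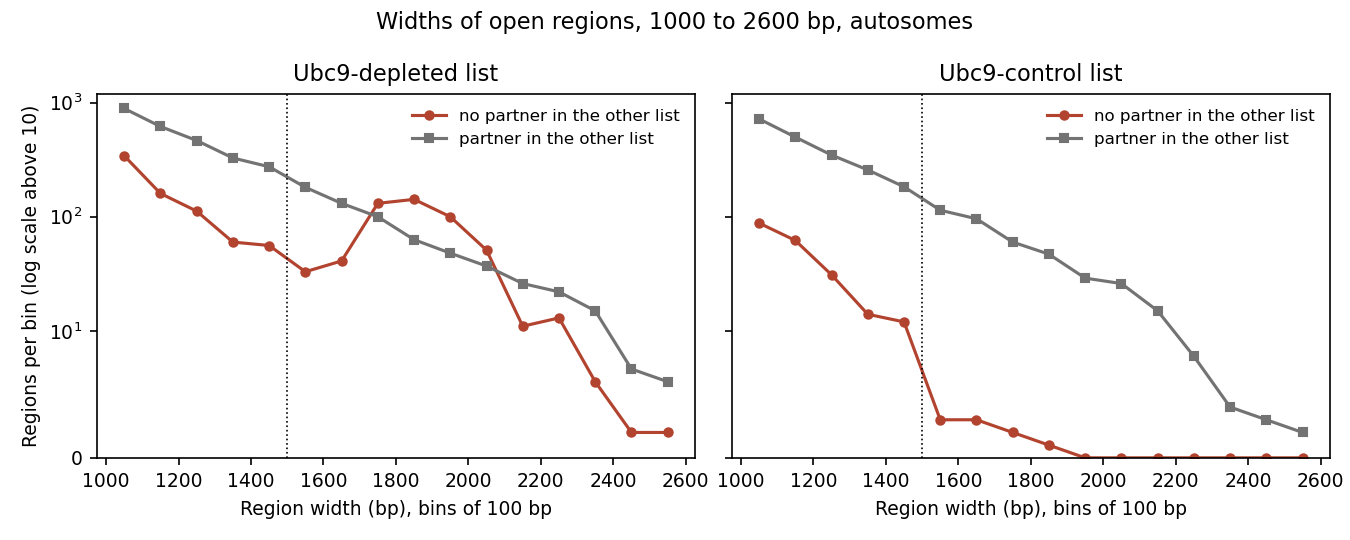
Number of regions per 100 bp of width, from 1000 to 2600 bp, in the Ubc9-depleted list (left) and the Ubc9-control list (right), split by whether a region of the other list overlaps. The vertical axis is logarithmic above 10, and the dotted line marks 1500 bp. Depleted regions without a partner form a second maximum between 1700 and 2000 bp, where 373 of the 535 very broad ones lie.

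The width change between the lists was read in both directions, since members chosen in one list tend to be wider there by that choice. The 673 depleted members with a partner had a median width of 1722 bp, against 1353 bp for the widest control partner. The median log2 ratio of depleted to control width was 0.42, or 1.33-fold, with quartiles of 0.07 and 1.09. Of these members 285 (42.3%) were at least 1.5 times wider than their partner, against 13.2% of all depleted regions with a partner, and 1 was at least 1.5 times narrower, against 9.14%. The 419 control members with a partner had a median log2 ratio of depleted to control width of -0.07, and 98 of them (23.4%) were at least 1.5 times wider in the control list, against a background of 8.95%, and 7 (1.67%) were at least 1.5 times wider in the depleted list, against 13.5%. These shares are fixed in part by the rule.

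Where both lists had a very broad region, the widths were nearly equal. The rule fixes this in part, since both widths had to reach 1500 bp. The 254 depleted members of this kind had a median log2 ratio of depleted to control width of 0.03, and 148 were wider in depleted cells and 105 in control cells. Pairs of single partners chosen by the geometric mean of both widths, a choice that favours neither list, gave a median log2 ratio of 0.05 at 1500 bp or more, with 236 of 377 wider in depleted cells and 140 wider in control cells. Narrower pairs gave 0.09 at 600 to 900 bp, 0.08 at 900 to 1200 bp and 0.07 at 1200 to 1500 bp. The narrowest pairs gave 0.02 under 300 bp (4238 pairs) and 0.01 at 300 to 600 bp (12595 pairs). The median width of regions of like mean width thus differed little between the lists, but larger differences leaned to the depleted list. At 1500 bp or more, 8.75% of pairs were at least 1.5 times wider in depleted cells and 2.39% in control cells. At 1200 to 1500 bp these shares were 10.2% and 2.91%, and at 900 to 1200 bp 12.2% and 5.00%. They were closer to each other at 300 to 600 bp, with 13.6% and 11.0%, and under 300 bp, with 7.46% and 6.18%.

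**Figure D2:**
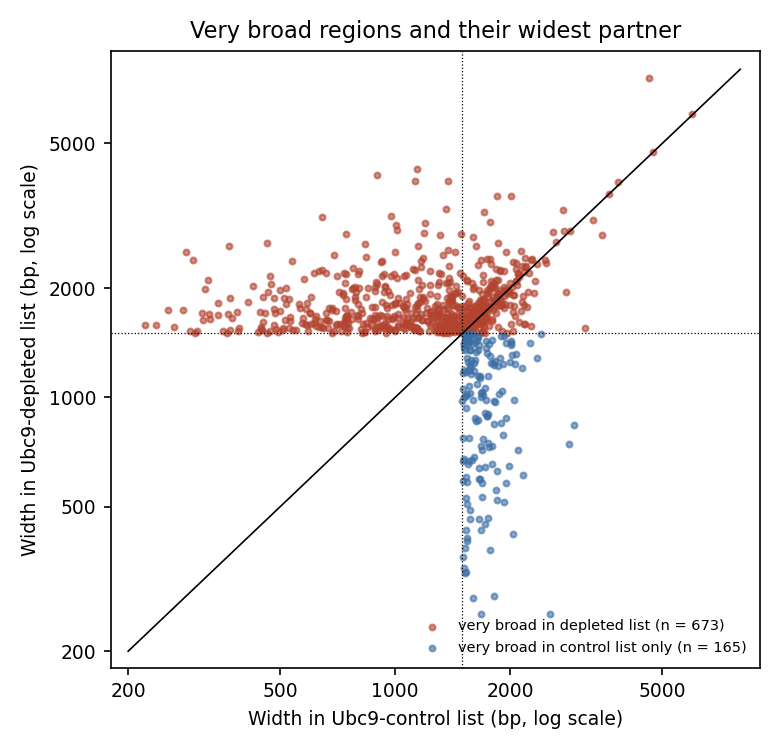
Width in the Ubc9-depleted list (vertical, bp, log scale) against the width of the widest partner in the Ubc9-control list (horizontal, bp, log scale). Red points are the 673 depleted members with a partner and blue points the 165 control members whose depleted partner was narrower. The dotted lines mark 1500 bp and the diagonal marks equal width. Most points of the upper right quadrant, where both widths had to reach 1500 bp, lie close to the diagonal.

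The side on which widened regions reached past their partner was compared with the direction of transcription. Among 353 depleted members with 1 narrower partner, 192 (54.4%) reached at least 50 bp past it on both sides. Of the 353, 170 held annotated coding starts on 1 strand only. They extended a median of 441 bp past the control partner in the direction of transcription and 76 bp in the upstream direction. Of the 170, 127 (74.7%, interval 67.5 to 81.0) extended farther downstream and 43 farther upstream. The 58 control members of this kind extended a median of 84 bp past the depleted partner downstream and 94 bp upstream, and 30 of 58 (51.7%, interval 38.2 to 65.0) extended farther downstream. The downstream side was also favoured in depleted regions under 1500 bp that were at least 1.5 times wider than their partner, 857 of 1063 (80.6%, interval 78.1 to 83.0), and in control regions of the same kind, 196 of 299 (65.6%, interval 59.9 to 70.9). The downstream lean is therefore not particular to very broad regions, and under 1500 bp both lists had it, with the larger share in the depleted list. Very broad control members did not have it. Of those at least 1.5 times wider than their partner, 13 of 30 (43.3%, interval 25.5 to 62.6) extended farther downstream, against 72 of 98 such depleted members (73.5%, interval 63.6 to 81.9).

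The H1 lists are a readout that the rule did not use. Of the depleted members without a control partner, 20 (3.74%, interval 2.30 to 5.71) overlapped an H1-TKO region and 24 (4.49%, interval 2.90 to 6.60) an H1-WT region, and 505 (94.4%) overlapped neither. Depleted regions under 1500 bp without a partner overlapped an H1-TKO region in 12.7% (interval 12.2 to 13.1) and an H1-WT region in 10.3% (interval 9.93 to 10.8). The broad ones were thus found in the H1 lists less often than the narrow ones although they are longer. The intervals take regions as independent, which members of a common form may not be, and no test was run. Of the 673 depleted members with a partner, 94.4% overlapped an H1-TKO region and 94.8% an H1-WT region. The background over all depleted regions was 52.4% and 50.8%. Control members overlapped in 96.3% and 96.5%, against 73.7% and 75.3% of all control regions. The H1 lists themselves hold few very broad regions, 19 in H1-TKO and 31 in H1-WT cells, and no source used here says that they were made with the same settings, so their widths were not compared with those of the Ubc9 pair.

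Place separated the same groups. A gene end is a window of 1000 bp on each side of either annotated end of a protein-coding gene. Depleted members without a partner lay outside genes in 421 of 535 cases (78.7%, interval 75.0 to 82.1), inside genes in 97 (18.1%) and at gene ends in 17 (3.18%, interval 1.86 to 5.04). Depleted regions under 1500 bp without a partner lay at gene ends in 6.04% (interval 5.72 to 6.38) and outside genes in 68.2% (interval 67.6 to 68.8). Members with a narrower control partner lay at gene ends in 67.1% (interval 62.3 to 71.5), those broad in both lists in 72.0% (interval 66.1 to 77.5) and control members with a narrower depleted partner in 59.4% (interval 51.5 to 67.0). Over all members the share at gene ends was 39.8% in the depleted list and 65.4% in the control list, against 22.9% and 23.5% of all regions.

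**Figure D3:**
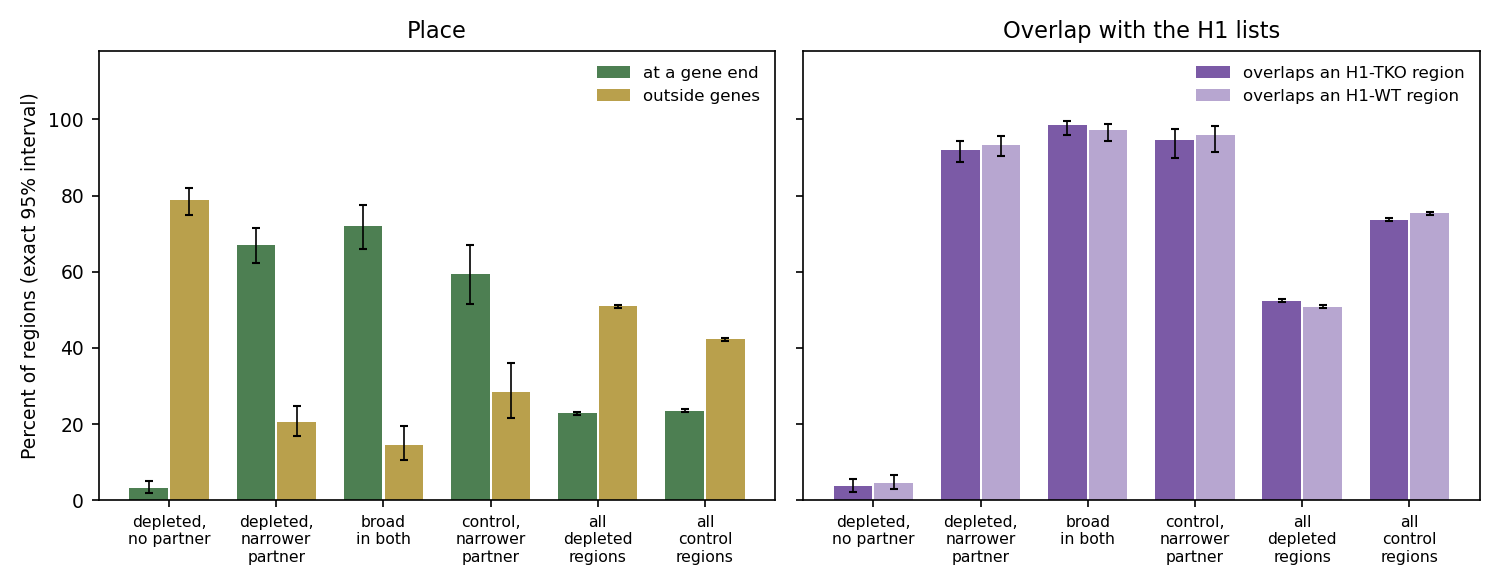
Percent of regions at gene ends and outside genes (left) and percent overlapping an H1-TKO or H1-WT region (right), for the groups of very broad regions and for all autosomal regions of each list. Bars are shares and error bars exact 95% binomial intervals. The 535 depleted regions without a partner stand at 3.18% at gene ends and 3.74% in the H1-TKO list, and the other plotted groups of very broad regions at 59.4% or more and 91.9% or more. The 9 control members without a partner are not plotted.

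Promoters in very broad regions of the depleted list were rich in CpG. Over the 300 bases around a coding start, from 250 before it to 50 after it, the median was 29.0 CpGs for starts in depleted members with a narrower partner and 29.0 for those in depleted members broad in both lists. It was 23.0 for starts in depleted regions under 1500 bp and 14.0 over all coding starts of the table. The median GC content was 68.3%, 67.0%, 62.7% and 57.0% in the same order. The 16 starts in depleted members without a partner had a median of 26.0 CpGs and a GC content of 66.7%. Starts in control members broad in both lists had a median of 28.0 CpGs. Those in control members with a narrower depleted partner had 22.0, near the 23.0 of starts in control regions under 1500 bp. Of the members outside chromosome 18, which the promoter table does not cover, 33.1% held a coding start in the depleted list and 50.4% in the control list, but 15 of 514 (2.92%) of the depleted members without a partner did.

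The members without a partner were spaced at a preferred distance from another region. For 263 of the 535 (49.2%) the nearest other region of the depleted list lay from 4000 to under 5500 bp away, and for 180 (33.6%) it lay from 4500 to under 5000 bp away. This held for 32 of 419 depleted members with a narrower partner (7.64%), 16 of 254 broad in both lists (6.30%), 37 of 428 control members (8.64%) and 2272 of 20340 depleted regions under 1500 bp without a partner (11.2%). The windows were chosen after the distances were seen.

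The 263 pairs had a common form. They were counted by member, so a pair of members nearest to each other counts from each side. The broad member had a median width of 1847 bp and its neighbour one of 439 bp, with quartiles of 378 and 644 bp. From the outer edge of the member to the outer edge of the neighbour they spanned a median of 7155 bp, with quartiles of 7082 and 7230 bp, and 213 of the 263 (81.0%) spanned from 7000 to under 7400 bp. The neighbour lay at lower coordinates for 148 and at higher coordinates for 115. It too lacked a control partner in 256 of 263 pairs, against 45.0% of all depleted regions. Neighbours in the same window of depleted regions under 1500 bp without a partner lacked one in 1723 of 2272 cases. For depleted members with a narrower partner this was 9 of 32. The neighbour overlapped an H1 region in 7 of the 263 pairs, where 52.4% of all depleted regions overlapped an H1-TKO region and 50.8% an H1-WT region. The pairs were found on all 19 autosomes, with 2 to 19 on each. Of the 263 broad members, 216 lay outside genes, 42 inside genes and 5 at gene ends.

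The pairs with the highest scores show the form. On chromosome 5 a member of 1886 bp (chr5:98210098-98211983, score 485.5), 22644 bp from Prdm8, had a neighbour of 323 bp with a score of 76.4 at a distance of 4939 bp. On chromosome 8, inside Psd3, a member of 2207 bp (chr8:67792616-67794822, score 465.8) had a neighbour of 903 bp at 4382 bp. On chromosome 6 a member of 1726 bp (chr6:133826062-133827787, score 428.8) had a neighbour of 420 bp at 4910 bp. Over all 263 pairs the median score was 255.6 for the member and 146.0 for the neighbour. No annotation of repeated sequence was used here, so what these intervals contain was not tested.

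**Figure D4:**
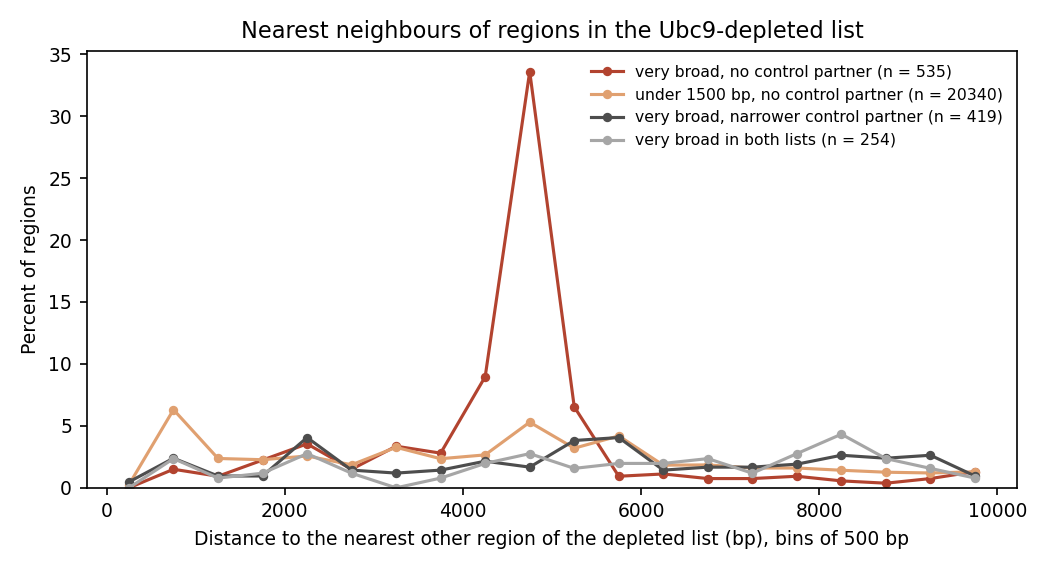
Percent of regions of the Ubc9-depleted list whose nearest other region of that list lies in each 500 bp bin of distance, for very broad regions by partner and for regions under 1500 bp without a partner. Very broad regions without a control partner peak in the bin from 4500 to 5000 bp with 33.6%.

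Few of the members without a partner lay at gene ends, and all 17 were looked at after their values were seen. The widest were 2439 bp at Pfn1, an actin-binding protein, and its neighbour Eno3 (score 76.1), 2166 bp at Cops3 and Nt5m (score 128.7), and 2044 bp at Arid1b, a subunit of the BAF chromatin remodeller (score 191.6). The highest scores were 369.9 at Nmi, 347.9 at Sfmbt1, a Polycomb-group-like protein, and 306.4 at Zscan4f. The region at Nr2f1, an orphan nuclear receptor, was 1556 bp wide with a score of 98.4. Away from gene ends, the widest lay outside genes on chromosome 13, 59373 bp from Prl2c3, and spanned 4310 bp (chr13:12859466-12863775, score 264.8). The highest score was 601.7 on chromosome 6, 88486 bp from Calcr, where the region was 1814 bp wide, and the next was 583.6 inside Mepe.

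The 9 control members without a depleted partner were few and weak. Their median score was 102.6, their widths ran up to 1865 bp at Adcy8, an adenylyl cyclase, and all 9 overlapped an H1-WT region while 6 overlapped an H1-TKO region.

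Genes for transfer RNAs, which RNA polymerase III transcribes, lay in 22 depleted members (1.82%, interval 1.14 to 2.74), against 0.357% of all depleted regions, and in 8 control members (1.87%, interval 0.810 to 3.65), against 0.242% of all control regions. Longer regions meet a gene more easily, and the median width was 1796 bp for depleted members against 430 bp for all depleted regions. The part that width plays in these shares was not tested, so they are a description. Of the 22 depleted members, 17 belonged to the group with a narrower control partner, where they made up 4.06% (interval 2.38 to 6.42). In the 21 with a partner, which were chosen by their depleted width, the depleted region was the wider one, with a median of 2.86-fold and a range of 1.04-fold to 4.57-fold, and 16 were at least 1.5 times wider. Of the 8 control members with tRNA genes, chosen by their control width, 4 were wider in control cells. Their widths were 1034 bp in depleted and 1690 bp in control cells on chromosome 2, 1026 bp and 1574 bp on chromosome 13, 1429 bp and 1544 bp on chromosome 3, and 1431 bp and 1522 bp on chromosome 8. The 22 depleted members held 59 tRNA genes on 9 chromosomes, and 17 of the 21 with a partner held 2 or more.

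The widest lay in a row on chromosome 1 near Fcgr3, an Fc receptor gene. There a region of 4099 bp in depleted cells stood against 896 bp in control cells, one of 3944 bp against 1128 bp, one of 3936 bp against 1376 bp and one of 1846 bp against 1385 bp. The first 3 held 5 tRNA genes each, for glutamate, glycine, aspartate and leucine, with glycine present in 2 forms. On chromosome 3, a region over n-THgtg9 and n-TNgtt13 was 2808 bp wide in depleted cells and 742 bp in control cells. Least changed was the region over n-TYgta9 and n-TAagc15 on chromosome 5, with 2299 bp in depleted cells and 2206 bp in control cells. Near-identical tRNA copies share reads, and the values of single copies are uncertain.

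**Figure D5:**
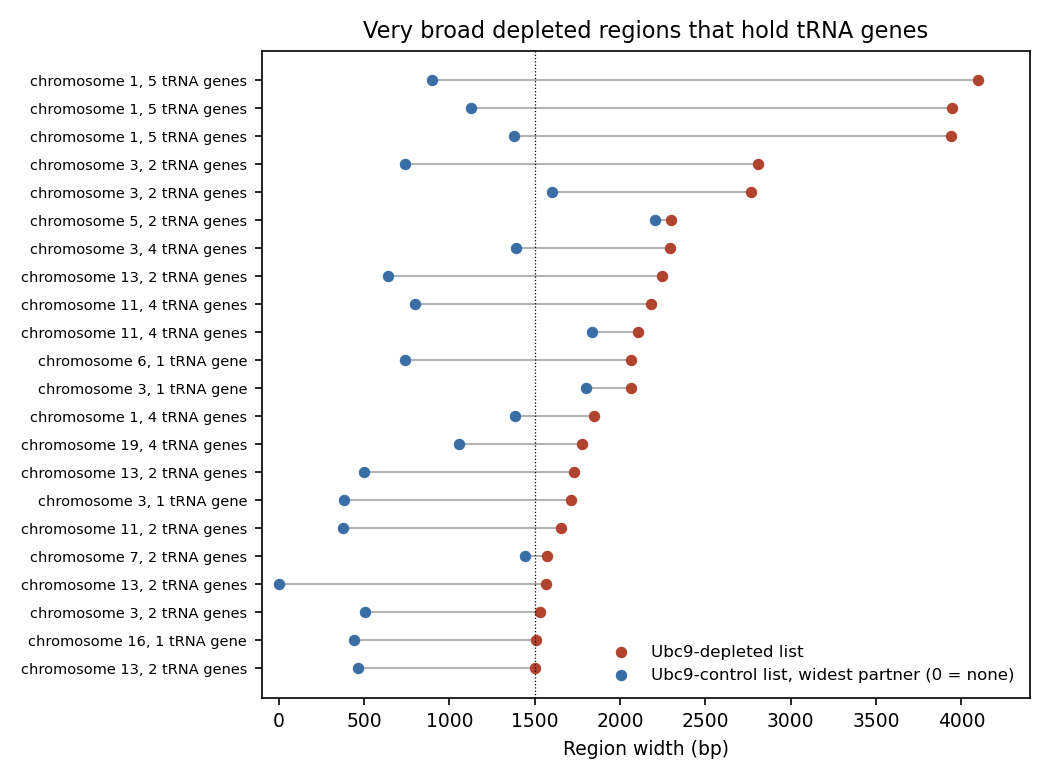
Width in bp of the 22 very broad depleted regions that hold tRNA genes (red) and of their widest partner in the Ubc9-control list (blue, 0 where there was none), sorted by depleted width. The red point lies to the right of the blue point in each of the 21 with a partner, and the dotted line marks 1500 bp.

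Gene groups were counted by genes with a very broad region at a gene end. Over all 20661 autosomal protein-coding genes, 580 (2.81%) had one in the depleted list and 335 (1.62%) in the control list. Each list pools replicates and the gene lists are small, so these counts carry no test.

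Genes of the 2-cell embryo had such a region at 4 of 33 in depleted cells and at 0 of 33 in control cells. Duxf3, the RefSeq symbol of the 2-cell transcription factor Dux on chromosome 10, had a region of 2549 bp with a score of 489.1 in depleted cells and one of 1378 bp with a score of 263.8 in control cells. Zscan4f had 1763 bp, Zscan4c 1750 bp and Zscan4b 1742 bp in depleted cells, and no region in control cells. Zscan4d stood just outside the threshold with 1467 bp in depleted cells, also with no control region. These genes and several others of the list lie among near-identical copies.

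Replication-dependent histone genes, whose products package new DNA in S phase, had such a region at 13 of 67 in depleted cells and 7 of 67 in control cells. The genes lie close together, so the 13 shared 7 regions and the 7 shared 4. The region at H2ac19 and H3c15 was 2221 bp wide in depleted cells and 1877 bp in control cells, and that at H2ac18 and H3c14 2191 bp and 2098 bp in the same order. H2bc3 and H3c3 shared a region of 2048 bp in depleted cells and 898 bp in control cells. At H1f10, a linker histone that the list's symbol rule takes in although it is not replication-dependent, the widths were 1764 bp in depleted cells and 671 bp in control cells. The opposite was seen at H4c8, with 1026 bp in depleted cells and 1574 bp in control cells.

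Genes of heterochromatin and repeat silencing had a very broad region at 5 of 24 in depleted cells and 3 of 24 in control cells. Cbx3, which encodes the heterochromatin protein HP1 gamma, had 2507 bp in depleted cells and 1432 bp in control cells. Uhrf1, which helps to maintain DNA methylation, had 1633 bp in depleted cells and 516 bp in control cells, where this was the wider of 2 partners. Trim28, a corepressor of zinc-finger proteins, differed little, with 2296 bp in depleted cells and 2148 bp in control cells, as did Rif1 with 1940 bp and 1847 bp and Cbx5, which encodes HP1 alpha, with 1931 bp and 1868 bp in the same order.

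Pluripotency genes had 3 of 39 in depleted cells and 2 of 39 in control cells. Sox2, a core factor of stem cell identity, had 1642 bp in depleted cells and 867 bp in control cells. Mycn had 2419 bp in depleted cells and 2184 bp in control cells, and Fbxo15 1576 bp and 1572 bp. The SUMO pathway had 2 of 20 and 1 of 20. The SUMO protease gene Senp3 had 1738 bp in depleted cells and 1676 bp in control cells, and the SUMO ligase gene Pias3 1587 bp and 1373 bp.

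Developmental regulators bound by Polycomb in stem cells had 3 of 61 in depleted cells and 2 of 61 in control cells. En2, a midbrain and hindbrain homeobox gene, had 1683 bp in depleted cells and 344 bp in control cells. Zic2 had 2086 bp in depleted cells and 2076 bp in control cells. Hand2, a heart and limb factor, went the other way with 605 bp in depleted cells and 1530 bp in control cells. Of Hox genes, 0 of 39 had one in depleted cells and 1 of 39 in control cells, Hoxc13, with 1146 bp in depleted cells and 1670 bp in control cells.

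Imprinted genes had 3 of 38 in either list and the same genes in both. Peg3 and Usp29, paternally expressed genes whose starts lie together, had 2790 bp in depleted cells and 3479 bp in control cells, and Ube3a had 1603 bp and 1616 bp in the same order. Housekeeping genes had 3 of 25 in depleted cells and 1 of 25 in control cells, with Eef1a1, a translation elongation factor gene, at 1609 bp and 1695 bp, Ppia at 1617 bp and 1366 bp and Polr2a, the large subunit of RNA polymerase II, at 1523 bp and 1153 bp. Ribosomal protein genes had 2 of 73 in depleted cells, Rps21 and Rpl7, and 0 of 73 in control cells. Interferon response genes and germline genes silenced by DNA methylation had 0 in each list, of 23 and of 18 genes.

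Of the widest regions, several were common to the lists, and others, such as those near Fcgr3 above, over Rab10os and the one 59373 bp from Prl2c3, had a narrower control partner or none. The widest was at the end of Crlf2, a cytokine receptor subunit, on chromosome 5, with 7596 bp in depleted cells and 4606 bp in control cells. A region over Rn18s-rs5, a ribosomal RNA pseudogene on chromosome 17, had 6042 bp and a score of 3100.0 in depleted cells, against 5996 bp and 2902.6 in control cells. One over the pseudogenes Gm10222 and Gm10925 on chromosome 1 had 4737 bp in each list. Inside Myo3a on chromosome 2 the widths were 3076 bp in depleted cells and 3304 bp in control cells, with a score of 3100.0 in each. Sequence of this kind is often present in further copies, and reads from copies may be placed there. The score of exactly 3100.0 recurred at several of these regions, and scores were not compared between the lists. Among promoters, the transcription factor gene Sp1 had 1895 bp in depleted cells and 1750 bp in control cells, Sp4 had 1757 bp and 1927 bp, and Nr1d2, a nuclear receptor of the circadian clock, had 1619 bp and 1573 bp in the same order.

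Pairs of very unequal width ran in both directions. On the depleted side, a region 22609 bp from AU018091 on chromosome 7 had 2509 bp in depleted cells and 283 bp in control cells. The region at Nfib, a transcription factor gene, had 2603 bp in depleted cells, and the wider of its 2 control partners had 367 bp. Over Rab10os, a long non-coding RNA on chromosome 12, the widths were 4254 bp in depleted cells and 1141 bp in control cells. On the control side, the most unequal was a region at LOC115488283 on chromosome 14, with 253 bp in depleted cells and 2540 bp in control cells. Pdgfc, a growth factor gene, had 839 bp in depleted cells and 2946 bp in control cells. A region inside Notch1, the receptor gene, had 283 bp in depleted cells and 1809 bp in control cells. The most narrowed depleted member, at Mtmr12, had 1555 bp against 3131 bp in control cells, and was the wider of 2 depleted regions there.

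Very broad regions were more numerous in the depleted list on each of the 19 autosomes. The ratio of depleted to control counts ran from 1.81 on chromosome 14, with 58 depleted and 32 control members, to 6.40 on chromosome 19, with 32 and 5. The median was 2.90. Members without a partner ran from 5.10 per 1000 depleted regions on chromosome 19 to 16.5 on chromosome 16.

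Markers of stem cells and of other cell types were checked by regions of any width at gene ends. Over all 20661 autosomal protein-coding genes, 11490 had one in depleted cells and 11214 in control cells. Of 10 stem cell markers, 6 had one in depleted cells and 8 in control cells. Fibroblast and feeder markers had 1 and 3 of 10, trophectoderm markers 1 and 3 of 7, primitive endoderm markers 2 and 3 of 6, neural markers 3 and 2 of 5, and mesoderm markers 3 and 1 of 5, in depleted and control cells in that order. Sox2 was the only marker with a very broad region, in depleted cells. The part that other cell types play in the widths was not tested.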

How the data were processed

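ATAC-seq regions came from 4 lists, 1 for each group of 2 replicates, which the authors made from both replicates per the labels. Per the submitters' processing notes, MACS 1.4.2-1, Picard, Bowtie2 and CASAVA 1.8.2 were used, and the build was mm10. Settings, a shift of reads for the transposase and the way replicates were combined are not given in the sources used here. Each region carries a score that the authors deposited. It starts at 50.1 in the depleted and 50.3 in the control list and was read as the caller's minus 10 log10 of p, used only to rank or filter regions within a list. Depth is unknown.

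Members were regions of 1500 bp or more on autosomes. The widest overlapping region gave the width change. Genes, promoters and sequences were those of RefSeq, GRCm38.p6. Python 3.11.15, numpy 2.4.6, pandas 2.3.3 and scipy 1.17.1 were used, and overlap, joining and place steps were tested on simulated data. The rule named the 10 widest and 10 highest-scoring members of each list, the 5 widest without a partner, the 5 most widened and 5 most narrowed pairs, and up to 4 genes per list by width; a selection is printed, and other names were chosen after their values were seen. Members and gene lists were chosen with earlier results of these data known. Base composition was taken from promoters only, since no genome was used. Some genes that the rule picks are left out.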

Additional observations from a re-analysis of the deposited data

Results flagged for a closer look

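Very broad regions on chromosomes X and Y and on scaffolds were outside every comparison above. The depleted list held 87 of them (Poisson interval 69.7 to 107) among 2295 regions there, with 53 on X, 23 on Y and 11 on scaffolds. The control list held 25 (interval 16.2 to 36.9) among 1772 regions there, with 14 on X, 4 on Y and 7 on scaffolds. Of the depleted ones 58 had no control partner, and of the control ones 3 had no depleted partner. The share without a partner over all regions there was not taken, so these counts have no background and are not read further. The depleted count drew attention because it is a signal in data not used in the comparisons above and lies above the control level. No test was run.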

How the results depend on the processing

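Of 53 alternative values, 24 stayed close to the reported one, 28 moved and 1 reversed. At 2000 bp or more the counts were 238 depleted and 73 control members, and at 1000 bp or more 4508 and 2639. Taking as many of the widest control regions as depleted members gave 1208, of which 4.88% lacked a partner. The share without a partner was 37.0% of depleted and 0% of control members at 2000 bp or more (0 of 73, where 3 counts, taken as the limit for a count of 0, would be 4.11%), 56.6% and 15.2% when the overlap had to cover 0.5 of the member, and 51.2% and 10.3% when partners needed a score of 100. The median log2 width ratio of depleted to control was 0.73 for depleted and -0.15 for control members at 2000 bp or more. In pairs chosen by mean width it was 0.05, which reversed the sign for control members, because that choice favours neither list. Gene-end shares became 33.1% and 50.4% when a coding start was required. Overlap with the H1-TKO list was 17.6% of depleted and 43.7% of control members when the overlap had to cover 0.5 of the member, 60.9% and 100% at 2000 bp or more, and 50.1% and 92.8% with an H1 score of 100. Overlap with the H1-WT list was 22.8% and 55.8%, 62.6% and 97.3%, and 49.6% and 90.9% under the same settings. Where no construction above explains a move, the cause was not tested.

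Pairs chosen by mean width, the coding start, the direction of extension and the spacing were added after the data were seen. The spaced members numbered 180 in the narrower window and 237 with neighbours scoring 100 or more. No paired analysis was possible because each list pools both replicates, and for the same reason no replicate could be left out. Composition of the central 500 bp was not run, since no genome was used. Depth limits how narrow or weak a control region could be seen, so a missing partner shows only that none was listed.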

Other observations

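Other RNA genes were counted in the same way as tRNA genes, and here too longer regions meet a gene more easily. Of the 1208 depleted members, 10 held a miRNA gene (0.828%, interval 0.398 to 1.52), against 0.155% of all depleted regions, and 7 a snRNA gene (0.579%, interval 0.233 to 1.19), against 0.103%. In the control list 7 members held a miRNA gene (1.64%, interval 0.660 to 3.34), against 0.124%, and 2 a snRNA gene (0.467%, interval 0.0566 to 1.68), against 0.0998%. Ends of long non-coding RNA genes lay in 165 depleted members (13.7%) and 92 control members (21.5%), against 10.9% and 12.3% of all regions. Of the 535 depleted members without a partner, 29 (5.42%) held one.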
